A study of Homo sapiens with 4 samples.

Results

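The 7 mitochondrially encoded subunits of respiratory complex I were taken as every gene whose symbol begins with MT-ND, which gave 7 of the 11597 genes in the authors' deposited table: MT-ND1, MT-ND2, MT-ND3, MT-ND4, MT-ND4L, MT-ND5 and MT-ND6. MOLM13 is a cell line from a human acute myeloid leukaemia. The comparison was between MOLM13 cells transduced with a lentiviral BTG2 cDNA (genotype BTG2 OE, 2 libraries) and cells transduced with the empty vector (genotype WT, 2 libraries). Both groups received the same lentiviral backbone, in which an EF1α promoter drives the insert together with puromycin resistance and ZsGreen, and both were collected 3 days after spin infection. The labels mention neither selection nor sorting, and the sources used here do not say whether the replicates were separate cultures, so p-values may measure technical spread alone. Poly(A) RNA was enriched from total RNA. The series describes long-read sequencing, whereas the labels' protocols describe paired reads of 150 bp, and the sources used here do not settle which of them gave the values.

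BTG2 is an antiproliferative adaptor protein that brings the CCR4-NOT deadenylase to messenger RNA in the nucleus and cytosol, and the design text asks how it acts on the stability of mRNA. Complex I is the proton-pumping NADH dehydrogenase of the inner mitochondrial membrane. Its membrane arm is built around the 7 subunits encoded by the mitochondrial genome, while every other subunit is encoded in the nucleus and imported. Mitochondrial mRNAs are cut from long transcripts of both strands of the circular genome, mostly at the tRNAs that lie between them. Their short poly(A) tails are added inside the organelle by MTPAP, and for several of them the tail completes the stop codon.

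The 3′ ends of the 7 annotated transcripts are shown. Poly(A) enrichment acts on the 3′ end of the mRNA, which need not be the annotated end. That of MT-ND4L lies inside the mRNA it shares with MT-ND4. Each line gives the last 30 bases, 5′ to 3′ on the gene's own strand, from GENCODE release 29 on hg38. The capitals mark the last in-frame codon, or the bases left over after the last full codon.
MT-ND1: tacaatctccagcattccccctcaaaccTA
MT-ND2: ctatctccccttttatactaataatcttaT
MT-ND3: gactacaaaaaggattagactgaaccgaaT
MT-ND4L: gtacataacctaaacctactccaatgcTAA
MT-ND4: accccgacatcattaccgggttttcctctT
MT-ND5: ctcatcctaaccctactcctaatcacaTAA
MT-ND6: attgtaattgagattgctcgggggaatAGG

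Of the 7 annotated transcripts, 4 (MT-ND1, MT-ND2, MT-ND3 and MT-ND4) ended in an incomplete stop codon, T or TA, which a poly(A) tail turns into a full one. The other 3 ended in a full codon, TAA in MT-ND4L and MT-ND5 and AGG in MT-ND6. All 7 lie on chromosome M without introns, 6 on the plus strand and MT-ND6 on the minus strand. The plus-strand genes run from 3307 to 4262 (MT-ND1), 4470 to 5511 (MT-ND2), 10059 to 10404 (MT-ND3), 10470 to 10766 (MT-ND4L), 10760 to 12137 (MT-ND4) and 12337 to 14148 (MT-ND5). MT-ND6 lies from 14149 to 14673, so that its annotated 3′ end meets that of MT-ND5 from the opposite strand. MT-ND4L and MT-ND4 are translated from a shared mRNA and overlap by 7 bases, from 10760 to 10766, which are in capitals here, chrM:10749-10778, plus strand.
MT-ND4L and MT-ND4 junction: aacctactccaATGCTAAaactaatcgtcc

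BTG2 itself was higher by a log2 fold change of 5.01 (SE 0.09) in the authors' deposited table, where the cDNA and the endogenous gene are not separated. All 7 complex I transcripts had a higher level with BTG2 than with the empty vector by their point values, and 5 rose past the threshold used here. MT-ND1, MT-ND2, MT-ND4, MT-ND5 and MT-ND6 rose at an adjusted p under 0.05 in the authors' deposited table, 0 fell, and MT-ND3 and MT-ND4L did not pass. The same rule called 8.11% of all listed genes in either direction, 3.64% higher and 4.47% lower. Higher calls made up 6.28% of the 5285 genes at least as abundant as MT-ND6, the least abundant of the 7, and 11.7% of the 1072 genes with a mean count of at least 1000. A log2 fold change above 0 was found in 50.1% of all genes, 43.2% of those 5285 and 34.0% of those 1072. The median log2 fold change was 0.80 over the 7, 0.00026 over all genes and -0.06 over the 1072. These are counts relative to all other poly(A)-enriched RNA in a bulk sample. More of this RNA per cell, more cells rich in it, less of the other RNA and a change in poly(A) capture cannot be told apart.

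No value per library was analysed here. Each level below is therefore the authors' mean normalized count over all libraries, each error is the authors' standard error (SE) of the log2 fold change, and the direction in single libraries is unknown. A level implied for each group was computed from the mean and the fold change, on the assumption that the groups weigh equally in the mean and that the fold change is the ratio of their means.

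MT-ND1 and MT-ND2 code for subunits of the proximal membrane arm, MT-ND1 beside the quinone-binding site. MT-ND1 had an implied normalized count of 31087 with BTG2 and 15467 with the empty vector, and in the authors' deposited table its log2 fold change was a rise of 1.01 (SE 0.10, adjusted p = 1.52e-23) at a mean count of 23277. This is 2.01-fold with a 95% interval from 1.77 to 2.29, the largest fold of the 7. MT-ND2 had an implied count of 26524 with BTG2 and 15826 with the empty vector, and in the authors' deposited table it rose by 0.75 on the log2 scale (SE 0.13, adjusted p = 3.47e-07). The gap of 0.26 between the log2 fold changes of MT-ND1 and MT-ND2 had a 95% interval from -0.05 to 0.57, with their errors taken as independent.

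MT-ND4 and MT-ND5 code for the large antiporter-like subunits at the distal end of the membrane arm. MT-ND4 had an implied count of 5340 with BTG2 and 2864 with the empty vector, and in the authors' deposited table its rise was 0.90 on the log2 scale (SE 0.06, adjusted p = 2.83e-47). Its score, the fold change over its SE, was 14.9 in the authors' deposited table. Counted from the most positive score, with falling genes last whatever their size, it ranked 6 among all genes, ahead of MT-ND1 at 16 and MT-ND5 at 18. MT-ND5 had an implied count of 1267 with BTG2 and 728 with the empty vector, and in the authors' deposited table it rose by 0.80 on the log2 scale (SE 0.08, adjusted p = 4.14e-23). The fold changes of these distal subunits differed by 0.10 on the log2 scale, with an interval of the difference from -0.09 to 0.29.

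MT-ND6 codes for a small membrane-arm subunit and is the only protein-coding gene read from the opposite strand, and its mRNA carries little or no poly(A) tail in human cells. It had an implied count of 233 with BTG2 and 121 with the empty vector. In the authors' deposited table its rise was 0.95 on the log2 scale (SE 0.20, adjusted p = 0.000116) at a mean count of 177. Its interval, 0.55 to 1.34, was the widest of the 7 and covered the point values of the 4 plus-strand members that rose. The sources used here do not say whether counting used the strand, so reads of the plus strand over MT-ND6 cannot be told from its own.

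MT-ND3 and MT-ND4L code for small membrane-arm subunits and had the lowest fold changes of the 7. MT-ND3 had an implied count of 38236 with BTG2 and 28697 with the empty vector. Its log2 fold change in the authors' deposited table was 0.41 (SE 0.16, p = 0.0102, adjusted p = 0.0977), with an interval from 0.10 to 0.73. MT-ND4L had an implied count of 259 with BTG2 and 202 with the empty vector, and in the authors' deposited table a log2 fold change of 0.36 (SE 0.19, p = 0.0642, adjusted p = 0.330). Its interval, -0.02 to 0.74, reached from no difference to a value near that of MT-ND2. MT-ND4, its partner on the shared mRNA, exceeded it by 0.54 on the log2 scale, with an interval of the difference from 0.15 to 0.94.

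**Figure D1:**
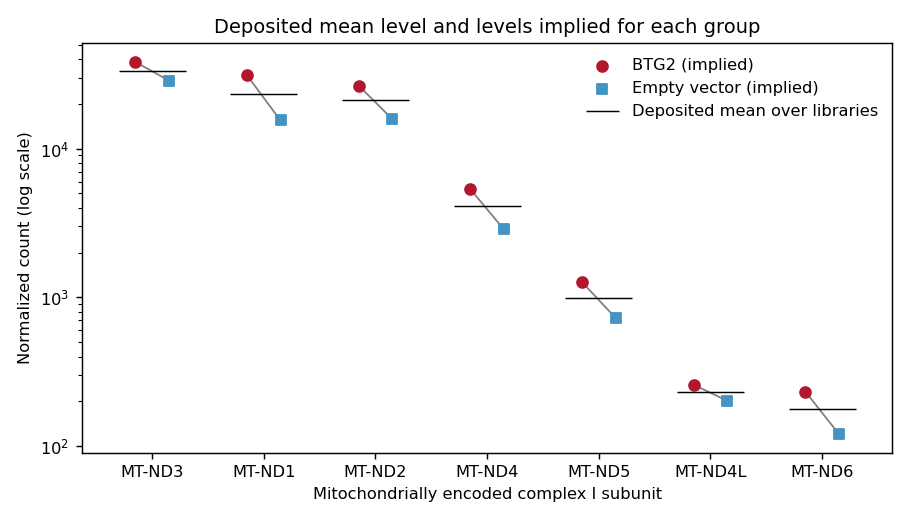
Normalized count on a log axis for the 7 transcripts, ordered by level: black lines are the authors' means over libraries, and circles and squares are the levels implied for BTG2 and for the empty vector, drawn with no error bar. The circle stands above the square for each of the 7, furthest for MT-ND1 (31087 with BTG2, 15467 with the empty vector) and least for MT-ND4L (259 with BTG2, 202 with the empty vector).

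In order of log2 fold change the 7 ran MT-ND1, MT-ND6, MT-ND4, MT-ND5, MT-ND2, MT-ND3 and MT-ND4L, over a range of 0.65. None of the 6 neighbouring pairs in this order had a difference whose 95% interval excluded 0. The order was taken from the same values, so the gaps between neighbours are small by construction. Of all 21 pairs, 8 had an interval that excluded 0, and each of those set MT-ND3 or MT-ND4L below MT-ND1, MT-ND4, MT-ND5 or MT-ND6. These intervals take the errors of the 2 genes as independent although they come from the same libraries, are not adjusted for the 21 pairs, and describe the values without a test.

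Levels spanned a wider range than fold changes. Per kb of annotated transcript, the mean normalized count was 96724 for MT-ND3, 24348 for MT-ND1, 20321 for MT-ND2 and 2977 for MT-ND4. It was 775 per kb for MT-ND4L, 551 for MT-ND5 and 337 for MT-ND6. MT-ND4L thus stood below MT-ND4 per kb, although they share an mRNA. The sources used here do not say how reads over the shared 7 bases, or spanning both genes, were assigned, and a level per kb applies to fragment counts and not to long reads, which count each molecule once. The 3 most abundant, MT-ND3, MT-ND1 and MT-ND2, held 93.4% of the summed mean count of the 7. Together the 7 held 0.808% of the summed mean count of the table, 0.987% of the sum implied with BTG2 and 0.625% of that implied with the empty vector.

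**Figure D2:**
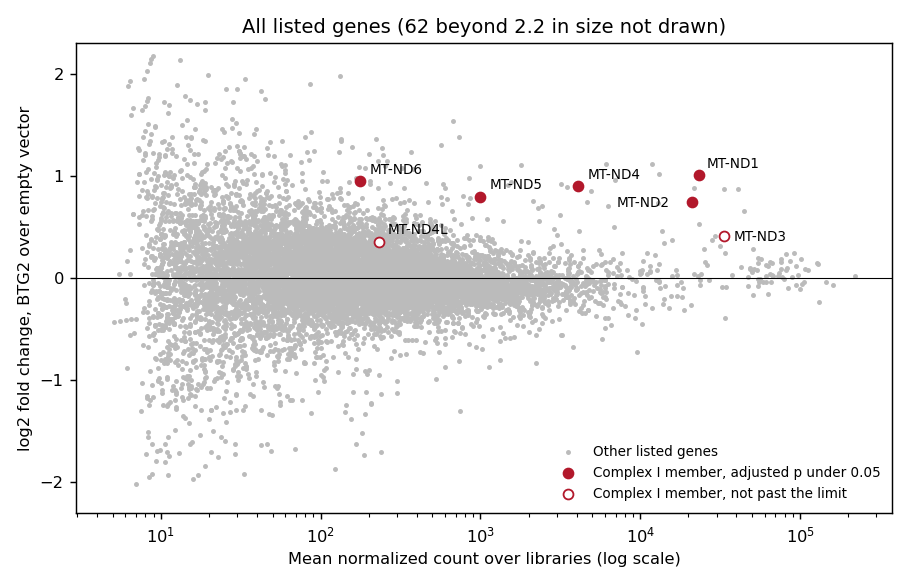
Log2 fold change of BTG2 over empty vector against the authors' mean normalized count on a log axis, for all listed genes except those beyond an absolute value of 2.2. Filled red points are the 5 complex I transcripts with an adjusted p under 0.05, open red points are MT-ND3 and MT-ND4L, and the 4 with mean counts above 1000 lie where most genes are close to 0.

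Standard errors were large for such abundant transcripts. Genes with a mean count of at least 1000 had a median SE of 0.06 on the log2 scale. MT-ND3 had an SE larger than 99.3% of them, MT-ND2 larger than 98.9% and MT-ND1 larger than 95.8%, whereas MT-ND4, with an SE of 0.06 in the authors' deposited table, lay above 44.0%. MT-ND3, the most abundant of the 7, was thus also among the least precisely measured for its level.

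Among the 13 protein-coding genes of the mitochondrial genome, all of them listed, the 3 with the shortest annotation had the 3 lowest fold changes. This ordering was noticed in the values and is given as a description. In the authors' deposited table the log2 fold change was 0.33 (SE 0.30) for MT-ATP8, an ATP synthase subunit gene annotated at 207 bases. It was 0.36 for MT-ND4L at 297 bases and 0.41 for MT-ND3 at 346 bases. These are lengths of annotated genes, which need not be those of the mRNAs. MT-ND4L shares its mRNA with MT-ND4 (0.90), and the annotation of MT-ATP8 overlaps that of MT-ATP6 (0.75). The other 10, from 525 bases (MT-ND6) to 1812 bases (MT-ND5), ranged from 0.74 to 1.12, and all 10 rose past the threshold against 0 of the 3 shortest. Among those 10, MT-ND6, the shortest, stood at 0.95 and MT-ND5, the longest, at 0.80 in the authors' deposited table. Over all 13 the Spearman rho of fold change with length was 0.45, across genes that share libraries and in part share mRNAs. The 3 shortest differed widely in level, with mean counts of 33466 for MT-ND3, 230 for MT-ND4L and 133 for MT-ATP8 in the authors' deposited table.

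**Figure D3:**
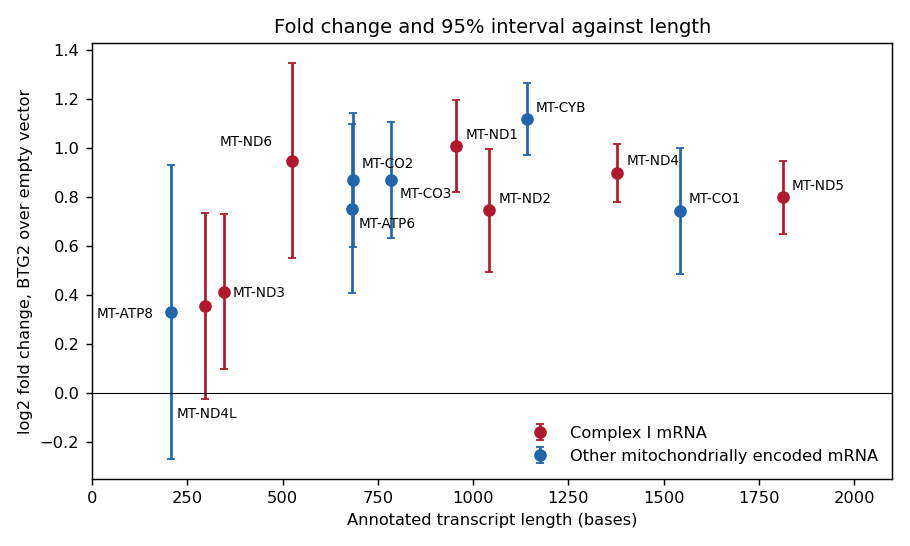
Log2 fold change of BTG2 over empty vector, with its 95% interval, against annotated transcript length in bases for the 13 mitochondrially encoded protein-coding genes. MT-ATP8, MT-ND4L and MT-ND3, the 3 shortest, lie at 0.33, 0.36 and 0.41, below the other 10 at 0.74 to 1.12, and their intervals overlap those of several longer genes.

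The mitochondrially encoded mRNAs of the other respiratory complexes had log2 fold changes from 0.33 to 1.12. Past the threshold, 5 of 6 such mRNAs were higher and 0 lower, with a median log2 fold change of 0.81. In the authors' deposited table MT-CO1 (0.74), MT-CO2 (0.87) and MT-CO3 (0.87), subunits of cytochrome c oxidase, and the ATP synthase subunit MT-ATP6 (0.75) rose, as did MT-CYB of complex III at 1.12. The median log2 fold change was 0.80 over the 7 complex I transcripts and 0.73 over all 12 other mitochondrially encoded genes, and this difference was not tested. In the authors' deposited table the large ribosomal RNA MT-RNR2 rose by 0.66 (SE 0.11) and the small one, MT-RNR1, had 0.37 (SE 0.15, adjusted p = 0.109). Of 4 listed mitochondrial tRNAs, at mean counts of 17.9 to 74.4, 0 passed. In the authors' deposited table they stood at 0.72 (MT-TQ, SE 0.30), 0.74 (MT-TS1, SE 0.58), -0.29 (MT-TF, SE 0.50) and -0.27 (MT-TS2, SE 0.50). MT-TQ and MT-TS1 lie on the minus strand with MT-ND6, and for them too it is unknown whether counting used the strand.

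**Figure D4:**
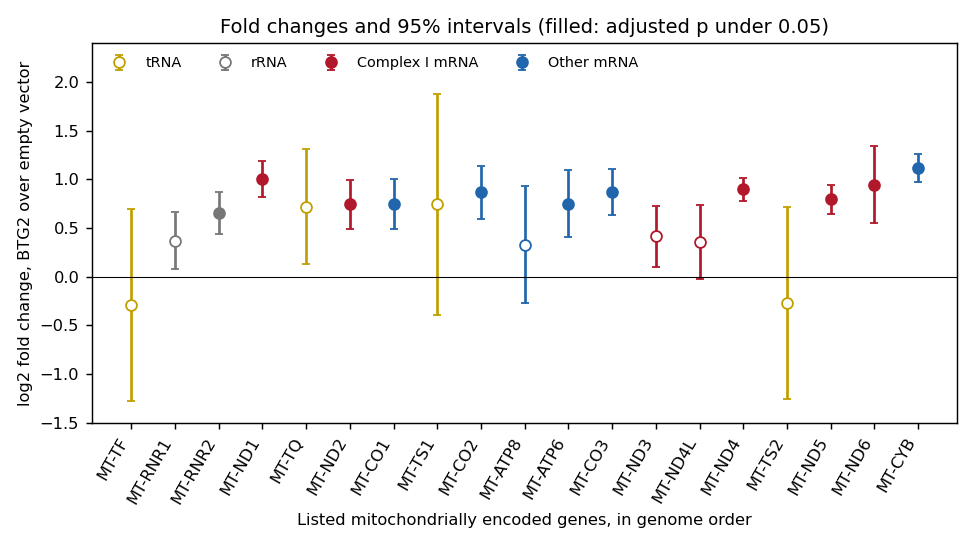
Log2 fold change of BTG2 over empty vector with its 95% interval for the 19 listed mitochondrially encoded genes, in the order in which they lie on the genome and coloured by kind, filled where the adjusted p was under 0.05. Complex I mRNAs (red) are scattered among the others, and the neighbours MT-ND3 (0.41) and MT-ND4L (0.36) lie below MT-CO3 (0.87) and MT-ND4 (0.90) on either side.

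Nuclear copies of mitochondrial genes can take reads of the originals. The 4 copies in the table all lie on chromosome 1, plus strand, within a stretch from 629062 to 634376 on hg38, and 0 of them passed the threshold. MTND1P23, a fragment of MT-ND1 that matched it at 99.1% of 352 aligned bases, had a log2 fold change of 0.40 (SE 0.39) at a mean count of 39.0 in the authors' deposited table. MTND2P28, which matched MT-ND2 at 98.4% of 1042 aligned bases, had -0.07 (SE 0.27) at a mean count of 68.9 in the authors' deposited table, where MT-ND2 itself had 21175. MTCO1P12 (0.37) and MTATP6P1 (0.68) completed the 4 in the authors' deposited table. Reads of copies this alike cannot be fully told from those of the originals, and the counts of the copies were small beside them.

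The nuclear genes of complex I stayed mostly below the threshold, as did most listed genes, of which 3.64% were called higher and 4.47% lower. Of the 37 nuclear subunits, all listed, 2 rose and 2 fell, with a median log2 fold change of -0.03. Among the 7 nuclear core subunits, which form the catalytic matrix arm, 2 were lower and 0 higher at a median of -0.09. In the authors' deposited table NDUFS3 fell by 0.30 (SE 0.05, adjusted p = 1.81e-06). The iron-sulfur subunits NDUFS8 and NDUFV2 stood at -0.18 and -0.09 in the authors' deposited table without passing. Of the 30 supernumerary subunits, which surround the core, 2 rose and 0 fell, with a median of -0.03. NDUFA7 and NDUFA10 rose, each with a log2 fold change of 0.62, and NDUFC1 (-0.21) and NDUFA5 (0.27) did not pass in the authors' deposited table. For the 37 nuclear subunits the summed normalized count was 70765 implied with BTG2 and 73499 with the empty vector, whereas for the 7 mitochondrial ones it was 102945 with BTG2 and 63905 with the empty vector.

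Of 21 assembly factors of complex I, 0 passed the threshold in either direction, beside 8.11% of all listed genes. Their median log2 fold change was 0.05. Those with the largest scores were NDUFAF3 (-0.28), NDUFAF8 (0.20), DMAC2 (0.24) and NDUFAF2 (-0.23) in the authors' deposited table.

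Genes that make and process mitochondrial RNA mostly did not pass either, and 8.11% of all listed genes passed in either direction. Of 16 genes of mitochondrial transcription and genome maintenance 1 rose and 0 fell, with a median of -0.04. TOP1MT, the mitochondrial topoisomerase, rose by 0.28 (SE 0.08, adjusted p = 0.00519), whereas TFAM, which packages mitochondrial DNA and starts its transcription, stood at -0.26 (adjusted p = 0.105) in the authors' deposited table. The helicase TWNK (0.27) and the single-strand binding protein SSBP1 (-0.10) did not pass in the authors' deposited table. Of 23 genes of mitochondrial RNA processing, polyadenylation and decay 1 rose and 0 fell, with a median of -0.04. In the authors' deposited table ELAC2, which cuts precursors at the 3′ ends of tRNAs, rose by 0.51 (SE 0.14, adjusted p = 0.00370). PRORP, the nuclease of the tRNA 5′ ends, had 0.49 (SE 0.25), the oligoribonuclease REXO2 had -0.30 and FASTKD1 had 0.29 without passing in the authors' deposited table.

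**Figure D5:**
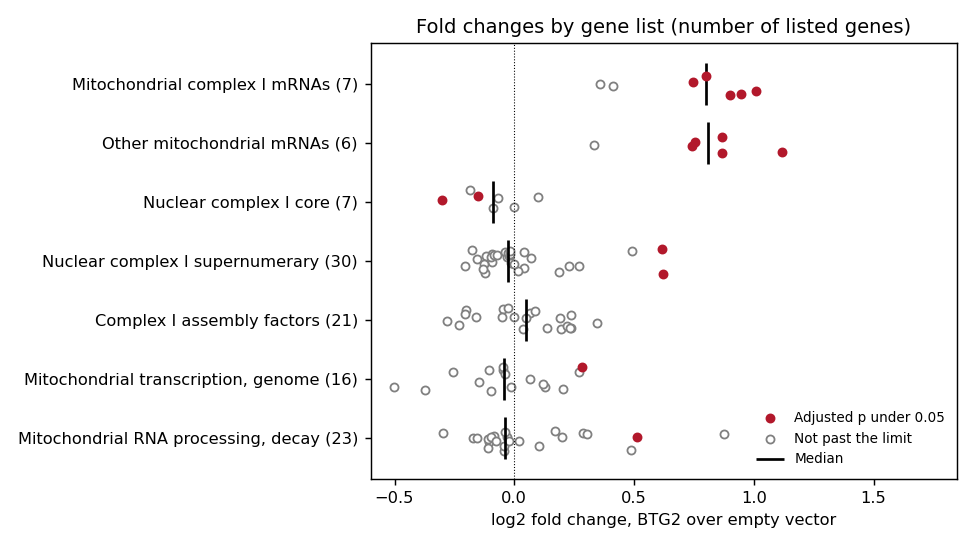
Log2 fold change of BTG2 over empty vector for each listed gene of 7 lists, with the number of listed genes in brackets, red where the adjusted p was under 0.05, and a black line at the list's median. The mitochondrially encoded lists have medians of 0.80 and 0.81, and the 5 nuclear lists have medians between -0.09 and 0.05.

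Lists bearing on cell state and purity gave these values, beside 3.64% of all listed genes called higher and 4.47% lower. Of 21 markers of mitochondrial mass 2 were lower and 0 higher at a median of -0.03, and ATP5F1B (-0.21) and SDHB (-0.22) were those that fell in the authors' deposited table. The ATP synthase subunit ATP5F1A, at 0.73 (SE 0.27, adjusted p = 0.0705) the highest log2 fold change of this list, and the chaperonin HSPE1 (-0.15) did not pass in the authors' deposited table. A list drawn up as nuclear-retained RNAs had 3 listed genes, whose retention in the nucleus was not measured here. In the authors' deposited table SNHG1 (0.37, mean count 1794) and NEAT1 (0.98, mean count 166) rose. MALAT1, at a mean count of 26.5, had -0.15 (SE 2.77) there. Their summed count was 2265 implied with BTG2 and 1708 with the empty vector, most of it from SNHG1. All 10 myeloid leukaemia markers were listed, with 2 higher and 3 lower, and MPO (-1.14), LYZ (-0.39), CEBPA (-0.26) and FLT3 (0.23) had the largest scores in the authors' deposited table. Their summed count was 15446 implied with BTG2 and 17855 with the empty vector. Of 4 markers each, 0 were listed for T cells, B cells and erythroid cells, and only KRT8, at a mean count of 58.5, was listed for epithelial or packaging cells in the authors' deposited table. The part of these lists in the rise of the mitochondrial transcripts was not tested.

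The calls of MT-ND1, MT-ND4 and MT-ND5 held when the null was a log2 fold change of up to 0.5 in size, which called 0.328% of all genes higher, while MT-ND2 and MT-ND6 no longer passed. Of the 7, only MT-ND1 also reached a log2 fold change of 1, a rule that called 0.535% of all genes higher. MT-ND3 passed as a sixth at an adjusted p limit of 0.1, where 4.79% of all genes were higher, and, in a setting chosen after seeing the data, with fold changes recentred on the median gene of at least 1000 mean counts, where 5.23% were. In 5 further settings 5 of the 7 were called, with 2.42% of all genes higher at a limit of 0.01, 3.64% and 4.31% after recentring on the median gene and on the median abundant gene, 1.8% with an empirical null and 3.11% after scaling to the implied total counts. With adjustment over only the 5799 genes whose mean count reached the median, 5 of the 7 were called as well, beside 6.91% of those 5799 genes called higher.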

How the data were processed

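The authors' deposited table holds a single comparison of BTG2 over empty vector. Levels are a signal never below 0, namely a mean normalized count pooled over libraries by the authors, per the file headers. Both fold change and error were deposited by the authors in log2 units. The deposited score equals fold change over SE, within 2.72e-07. The deposited p-value is its two-sided normal tail, and the adjusted p-value a Benjamini-Hochberg adjustment over all 11597 genes, within 1.48e-06. Per the submitters' processing notes, minimap2 and hg38 were used, with no role given. The sources used here do not name the program, normalization, annotation or filter that led to it. All 7 members are listed, so none was lost to a filter on low values. With no counts per library, no count test could be run, the depth of each library is unknown, and likeness of patterns across libraries could not be computed.

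Genes were called at the authors' adjusted p under 0.05, across all genes. Intervals are normal, at the 95% level, from the deposited SE. Named genes are the 7 members, all other mitochondrially encoded genes, their nuclear copies, and up to 4 genes of each list with the largest absolute score; 1 gene that the rule names is not reported here. Members and lists were chosen with earlier results of these data known. Coordinates and sequences came from GENCODE release 29 on GRCh38 (hg38), which held all 7 members under the same versioned identifiers. Copies were aligned locally with Biopython 1.88. Recalling steps were tested on simulated data. Python 3.11.15, numpy 2.4.6, pandas 2.3.3, scipy 1.17.1 and matplotlib 3.10.9 were used.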

Additional observations from a re-analysis of the deposited data

How the results depend on the processing

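The number of complex I transcripts called higher was 5 in the authors' deposited table and ranged from 1 to 6 over 10 alternatives, of which 2 were chosen after seeing the data: scaling to implied total counts and recentring on the median gene of at least 1000 mean counts. It was 1 with a minimum absolute log2 fold change of 1 and 3 in a test against 0.5, both stricter by construction. No member changed sign under any of the 10, but this was fixed in advance. They either kept the fold changes or recentred them on small values, the largest in size -0.06, against a lowest member value of 0.36. The adjusted p of MT-ND3 ranged from 0.0441 to 1 and that of MT-ND4L, which passed in 0 of the 10, from 0.218 to 1. The median log2 fold change, 0.80 as deposited, was 0.77 to 0.85 when 1 member was left out, 0.77 after scaling to implied total counts and 0.85 with recentring on genes of at least 1000 mean counts. It was 0.067 relative to the median of the 12 other mitochondrially encoded genes, which was itself 0.73. No paired analysis was possible because the table carries no values per library, and for the same reason leaving out a replicate and the count-based alternatives were not run. Unknown depth limits MT-ND4L and MT-ND6 in particular, at mean counts of 230 and 177.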
